A study of Mus musculus with 4 samples.

Results

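Complex I, the NADH:ubiquinone oxidoreductase of the inner mitochondrial membrane, was described here through its nuclear genes in the newborn mouse heart. The members were the protein-coding genes whose symbol starts with Nduf, 46 of the 43346 genes in each file. They comprised 7 core subunits, 29 accessory subunits, 8 assembly factors with an Ndufaf symbol, and Ndufa4 and Ndufa4l2, whose names begin the same way although Ndufa4 is now counted as a subunit of cytochrome c oxidase and Ndufa4l2 is its paralog. Of the 4 RNA-seq libraries, 2 came from hearts lacking both MRTFA and MRTFB (double knockout, mixed strain background) and 2 from wild type hearts (ICR background), all at birth (P0, postnatal day 0). MRTFA and MRTFB are coactivators that bind serum response factor on promoters of contractile and cytoskeletal genes. The labels give neither the allele design nor any Cre driver, nor whether the libraries of a group are separate animals, so a p-value here reflects only how far libraries of a group differ, and that may be technical spread. Genotype and strain background cannot be told apart.

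Complex I takes electrons from NADH at the tip of its matrix arm, passes them along a chain of iron-sulfur clusters to ubiquinone, and uses the energy to pump protons through its membrane arm. The core subunits are those kept since bacteria. Nuclear genes encode those of the matrix arm, and mitochondrial DNA encodes those of the membrane arm. Accessory subunits were added around that core in evolution, and assembly factors help to build the enzyme but are absent from the finished complex. The heart draws most of its ATP from mitochondria after birth, and its complex I content rises as cardiomyocytes mature.

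Complex I genes lay lower in double knockout hearts across all 3 classes, and the assembly factors with an Ndufaf symbol had the lowest median. That difference between classes was not tested. All 46 genes passed the filter on low counts. Both double knockout libraries were below both wild type libraries for 43 of the 46 genes. These were 7 of 7 core subunits, 27 of 29 accessory subunits, 8 of 8 assembly factors and Ndufa4. Over all 16009 genes tested, 25.2% lay below in this way. The count of members was 41 once counts of the closest processed pseudogene, where present, were added. Both double knockout libraries were above both wild type libraries for 0 members, against 25.8% of all genes, and the log2 fold change was negative for 44 members, against 48.7% of all genes. The median log2 fold change (double knockout over wild type) was -0.41 for core subunits, -0.42 for accessory subunits and -0.67 for assembly factors, against 0.01 for all genes tested. A log2 fold change below -0.5 was seen for 1 core subunit, 8 accessory subunits and 5 assembly factors, and for 9.02% of all genes.

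No single member passed the threshold over all genes. Genes were tested with edgeR (quasi-likelihood), with Benjamini-Hochberg adjustment over all genes tested and a threshold of 0.05. It called 0 of the 46 members, against 0.075% of all genes in either direction and 0.0625% as lower. Adjusted p-values of the members ran from 0.121 to 0.997. An unadjusted p under 0.05 with a lower level was reached by 31 members, against 8.63% of all genes, and with a higher level by 0 members, against 8.7% of all genes. DESeq2 called 7 members, all lower, against 1.54% of genes called lower and 3.27% in either direction, and limma-voom called 0. The DESeq2 calls were the core subunits Ndufs1 and Ndufs8, the accessory subunits Ndufa11 and Ndufb10, and the assembly factors Ndufaf1, Ndufaf4 and Ndufaf5. The edgeR count depended on the double knockout libraries, being 17 without library 1 and 15 without library 2, with 10 members in both sets, and those fits called 8.13% and 4.46% of all genes lower. With no filter on low counts it was 20, in a fit that called 3.15% of genes lower, and at an adjusted p under 0.20, a line chosen after seeing the data, 20 members passed against 4.1% of all genes. It was 0 without either wild type library, in fits that called 0.0121% and 0.018% of all genes lower.

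**Figure D1:**
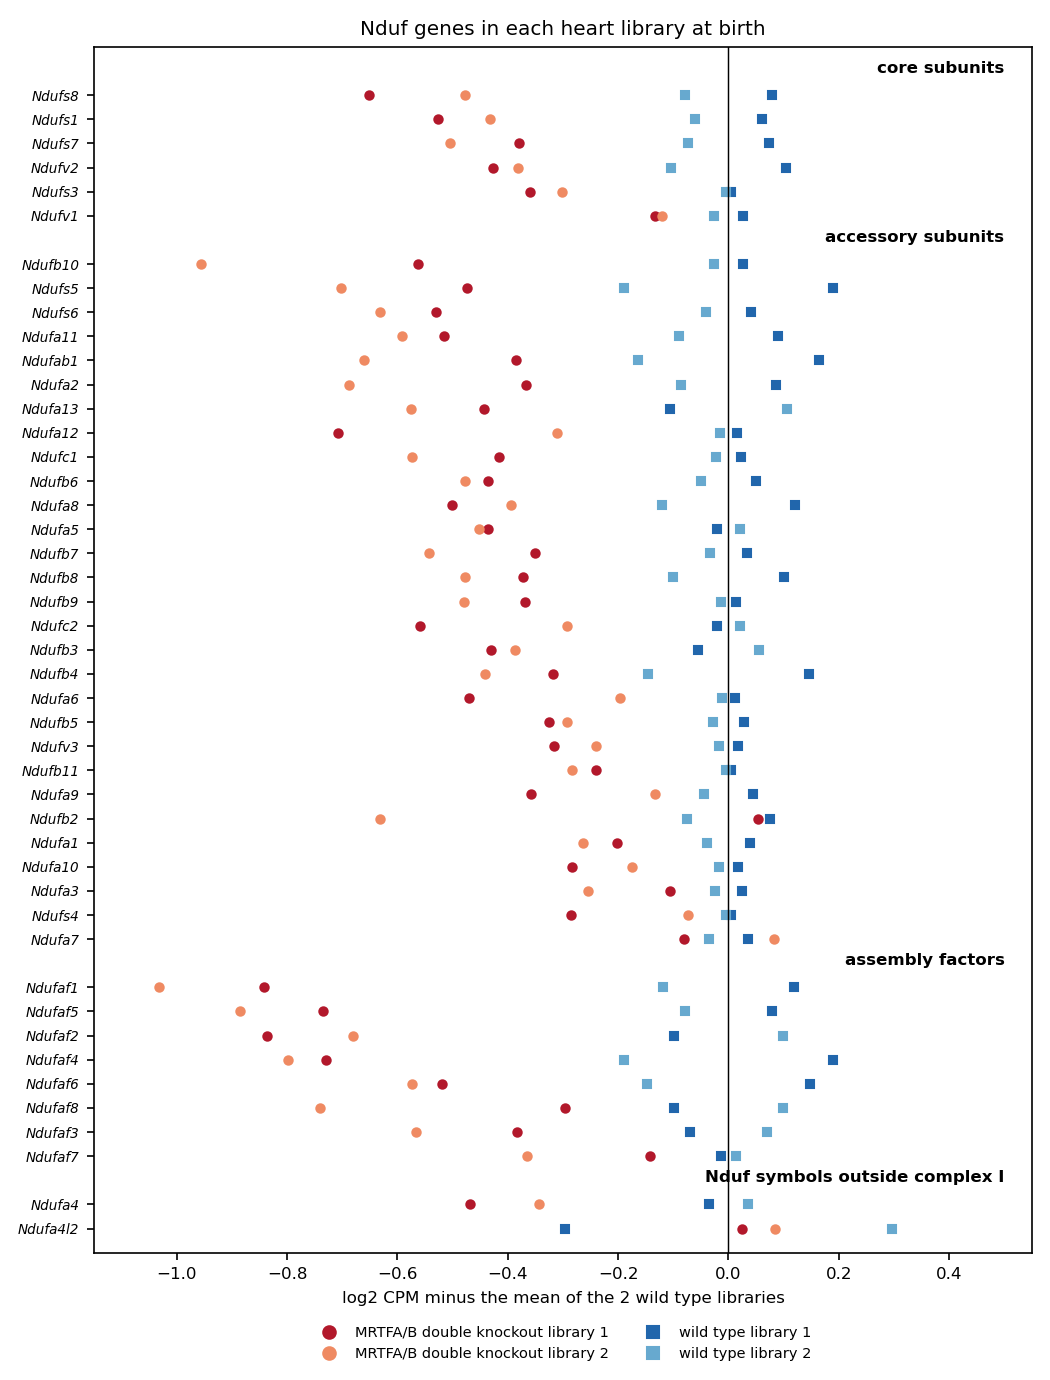
Each row is an Nduf gene, and the horizontal axis is log2 CPM (counts scaled to library size, TMM-adjusted) minus the mean of the 2 wild type libraries, with circles for double knockout and squares for wild type libraries. The wild type squares are symmetric about 0 by construction. The circles lie left of both squares for 42 of the 45 genes drawn, the exceptions being Ndufb2, Ndufa7 and Ndufa4l2. Among all genes tested, 25.2% lay lower in this way.

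Library totals were 27328195 and 16175259 counts in double knockout and 29460641 and 25205257 in wild type. Mrtfa was at 3.35 and 2.26 CPM in double knockout libraries 1 and 2, against 9.06 and 11.1 CPM in wild type, and Mrtfb at 46.0 and 49.6 CPM against 46.9 and 56.8 CPM. The log2 fold change was -1.82 (SE 0.26; edgeR adjusted p = 0.12) for Mrtfa and -0.12 (SE 0.13; edgeR adjusted p = 0.69) for Mrtfb. DESeq2 gave an adjusted p of 1.4e-05 for Mrtfa and 0.897 for Mrtfb. Reads over a whole gene can come from exons outside a deleted stretch, so the Mrtfb level checks nothing. Heart muscle markers were strong in every library, and lung markers did not exceed 0.489 CPM in sum. The 12 cardiomyocyte markers summed to 58535 and 55209.5 CPM in double knockout and 63068 and 60766 CPM in wild type. The double knockout sum was 0.919 of the wild type level. Of the 12, 8 lay below both wild type libraries, against 25.2% of all genes. Pln lay above both, at 110.3% of the wild type mean, as did 25.8% of all genes. The groups of the other 3 overlapped, with Myh7 at 165.3%, Tnnt2 at 106.0% and Tnni3 at 91.4% of the wild type mean. The sums of 5 fibroblast markers were 704 and 896 CPM in double knockout and 796 and 866 CPM in wild type, and those of 5 endothelial markers 1091 and 1124 CPM against 1120 and 1173 CPM. Macrophage markers (6) summed to 51.2 and 37.2 CPM in double knockout and 37.5 and 40.8 CPM in wild type. Epicardial markers (4) summed to 168 and 139 CPM against 122 and 116 CPM. Of these Tbx18 made 77.2 and 49.2 CPM against 35.1 and 25.5 CPM, the groups of the other 3 overlapping. Erythroid markers (7) summed to 463 and 806 CPM in double knockout against 752 and 553 CPM in wild type. Of these Hbb-bt was at 6.45 and 7.77 CPM against 42.0 and 26.2 CPM, the groups of the other 6 overlapping. Smooth muscle and pericyte markers (6), which include the SRF target Acta2, summed to 1027 and 901 CPM in double knockout and 3564 and 2088 CPM in wild type. Acta2 carried that sum, at 535 and 439 CPM in double knockout and 2962 and 1468 CPM in wild type. Of the 6, 5 lay below both wild type libraries, against 25.2% of all genes. Cnn1 was at 35.8% of the wild type mean, Myh11 at 67.7%, Tagln at 78.3% and Rgs5 at 79.7%. The groups overlapped for Pdgfrb, at 98.7% of wild type. In bulk tissue, fewer cells of a type and less RNA per cell cannot be told apart. The part of these marker shifts in the complex I values was not tested.

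The core subunits of the nuclear genome all belong to the matrix arm. Ndufs8, which carries iron-sulfur clusters on the way to the ubiquinone site, stood at 68.8 and 77.6 CPM in double knockout libraries 1 and 2, against 114 and 102 CPM in wild type (log2 fold change -0.57, SE 0.12; edgeR adjusted p = 0.1504). Ndufs1, the largest subunit and a holder of several iron-sulfur clusters, stood at 532 and 567 CPM in double knockout against 798 and 734 CPM in wild type (-0.48, SE 0.12; edgeR adjusted p = 0.163). The gap between the groups was wider than the gap within either for both genes. Ndufs7, which forms part of the ubiquinone site, was at 86.1 and 79.0 CPM in double knockout and 118 and 106 CPM in wild type. Ndufv2, an iron-sulfur subunit of the NADH-oxidising module, was at 253 and 261 CPM in double knockout and 365 and 316 CPM in wild type. Ndufs3, a core subunit without a cofactor, was at 46.5 and 48.5 CPM in double knockout and 59.9 and 59.5 CPM in wild type.

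Ndufv1 differed least of the core subunits. This subunit, which holds the flavin that accepts electrons from NADH, was at 324 and 327 CPM in double knockout and 363 and 349 CPM in wild type, 91.5% of the wild type mean (-0.13, SE 0.10; edgeR adjusted p = 0.574). Its groups did not overlap, but the difference was within 2 SE. Summed over the 7 core genes, levels were 1743 and 1856 CPM in double knockout and 2347 and 2194 CPM in wild type, a ratio of 0.793.

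Accessory subunits spanned 59.6% to 100.2% of the wild type mean, with a median of 74.6%. Ndufb10, a subunit of the membrane arm on the intermembrane-space side, was lowest, at 116 and 88.5 CPM in double knockout and 175 and 169 CPM in wild type (-0.75, SE 0.15; edgeR adjusted p = 0.146). Its double knockout libraries differed from each other more than its wild type libraries did. Ndufs6, a zinc-binding subunit of the matrix arm, was at 21.5 and 20 CPM in double knockout and 31.9 and 30.2 CPM in wild type (-0.58, SE 0.13; edgeR adjusted p = 0.154). Ndufa11, a membrane arm subunit, was at 50.8 and 48.2 CPM in double knockout against 77.4 and 68.3 CPM in wild type (-0.56, SE 0.11; edgeR adjusted p = 0.147). Ndufa11 lies outside the rule for named genes and was chosen after its values were seen, as were Ndufa6, Ndufa13, Ndufab1, Ndufaf6, Ndufb4, Ndufb6 and Ndufb11 below and, of other genes, mt-Nd4, mt-Nd6, Nubpl, Ppargc1a, Nrf1, Gabpa and Gabpb1.

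At the other end stood 3 accessory genes with little or no difference. Ndufa7, a matrix arm subunit, was at 33.0 and 37.0 CPM in double knockout and 35.8 and 34.1 CPM in wild type, with overlapping groups and a log2 fold change of 0.00 (SE 0.12), whose sign turns with the scaling. Ndufs4, a matrix arm subunit whose loss in mice causes a fatal encephalopathy, was at 104 and 121 CPM in double knockout and 128 and 127 CPM in wild type (-0.17, SE 0.12). The Ndufs4 log2 fold change was -0.07 without double knockout library 1 and -0.29 without double knockout library 2. Ndufa3, a small membrane arm subunit, was at 27.3 and 24.6 CPM in double knockout and 29.8 and 28.9 CPM in wild type (-0.18, SE 0.13). Ndufb2, also of the membrane arm, was at 8.71 and 5.38 CPM in double knockout and 8.85 and 7.96 CPM in wild type, so its groups overlapped and the direction rests on double knockout library 2. The accessory genes not described singly (Ndufa1, Ndufa2, Ndufa5, Ndufa8, Ndufa9, Ndufa10, Ndufb3, Ndufb5, Ndufb7, Ndufb8, Ndufc1, Ndufc2 and Ndufv3) had log2 fold changes between -0.52 for Ndufa2 and -0.23 for Ndufa10. Each had both double knockout libraries below both wild type libraries, as did 25.2% of all genes.

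The arms of the enzyme were compared by their medians, with no test of the difference. The 16 matrix arm genes had a median log2 fold change of -0.37, with 15 below both wild type libraries, and summed to 2279 and 2459 CPM in double knockout against 3044 and 2866 CPM in wild type. The 19 nuclear genes of the membrane arm had a median of -0.42, with 18 below both wild type libraries. They summed to 1149 and 1131 CPM in double knockout against 1525 and 1475 CPM in wild type. Over all genes tested the median was 0.01, and 25.2% lay below both wild type libraries. Relative to the wild type mean, the medians of the matrix arm and the membrane arm were both -0.37 in double knockout library 1, and were -0.30 and -0.48 in double knockout library 2. Ndufab1, the mitochondrial acyl carrier protein that sits in both arms and also serves fatty acid synthesis, was at 51.6 and 42.6 CPM in double knockout and 75.5 and 60.1 CPM in wild type. Ndufa13, a membrane arm subunit also known as GRIM-19, was at 59.6 and 54.4 CPM in double knockout and 75.3 and 87.3 CPM in wild type. Ndufa6, a matrix arm subunit on chromosome 15 (82350140 to 82354322, mm10), lies 1.34 Mb from Mrtfa, so linked DNA of another strain cannot be told apart from genotype there. It was at 31.4 and 37.9 CPM in double knockout and 43.8 and 43.2 CPM in wild type.

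The assembly factors, whose roles were worked out mainly in human cells, ran from 52.1% to 84.1% of the wild type mean, with a median of 63.2%. Ndufaf1 (ENSMUSG00000027305, chromosome 2, 119655446 to 119662827, mm10), a member of the complex that assembles the membrane arm, was at 31.8 and 27.9 CPM in double knockout and 62.0 and 52.6 CPM in wild type. Its log2 fold change of -0.94 (SE 0.14) was the most negative of the 46 members, with edgeR adjusted p = 0.121 and DESeq2 adjusted p = 0.000268. Ndufaf4 (ENSMUSG00000028261, chromosome 4, 24898083 to 24905001), which binds the ubiquinone-reducing module early in assembly together with Ndufaf3, was at 91.0 and 86.8 CPM in double knockout and 172 and 132 CPM in wild type (-0.78, SE 0.15; edgeR adjusted p = 0.141, DESeq2 adjusted p = 0.00566). Ndufaf5 (ENSMUSG00000027384, chromosome 2, 140170649 to 140203689), the enzyme that hydroxylates an arginine of Ndufs7, was at 12.4 and 11.1 CPM in double knockout and 21.8 and 19.5 CPM in wild type (-0.81, SE 0.15; edgeR adjusted p = 0.136, DESeq2 adjusted p = 0.0119). For these 3 genes every double knockout library was below every wild type library by more than the spread within a group.

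The remaining assembly factors were read at lower levels or differed less. Ndufaf2, a paralog of the accessory subunit Ndufa12 that holds its place until late in assembly, was at 2.19 and 2.45 CPM in double knockout and 3.70 and 4.26 CPM in wild type (-0.79, SE 0.24). In the annotation 65.6% of its exon bases overlap B230220B15Rik on the other strand, and the sources used here do not say whether the counting used strand. Ndufa12 itself was at 7.83 and 10.3 CPM in double knockout and 12.97 and 12.7 CPM in wild type (-0.51, SE 0.19). Ndufaf6, which acts early in assembly, was at 10.2 and 9.79 CPM in double knockout and 16.2 and 13.2 CPM in wild type. Ndufaf3 was at 9.31 and 8.20 CPM in double knockout and 11.6 and 12.8 CPM in wild type, and Ndufaf8, a partner of Ndufaf5, at 4.69 and 3.43 CPM against 5.39 and 6.19 CPM. Ndufaf7, a methyltransferase that acts on a core subunit, differed least, at 27.4 and 23.5 CPM in double knockout and 30.0 and 30.6 CPM in wild type (-0.25, SE 0.14; edgeR adjusted p = 0.402).

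**Figure D2:**
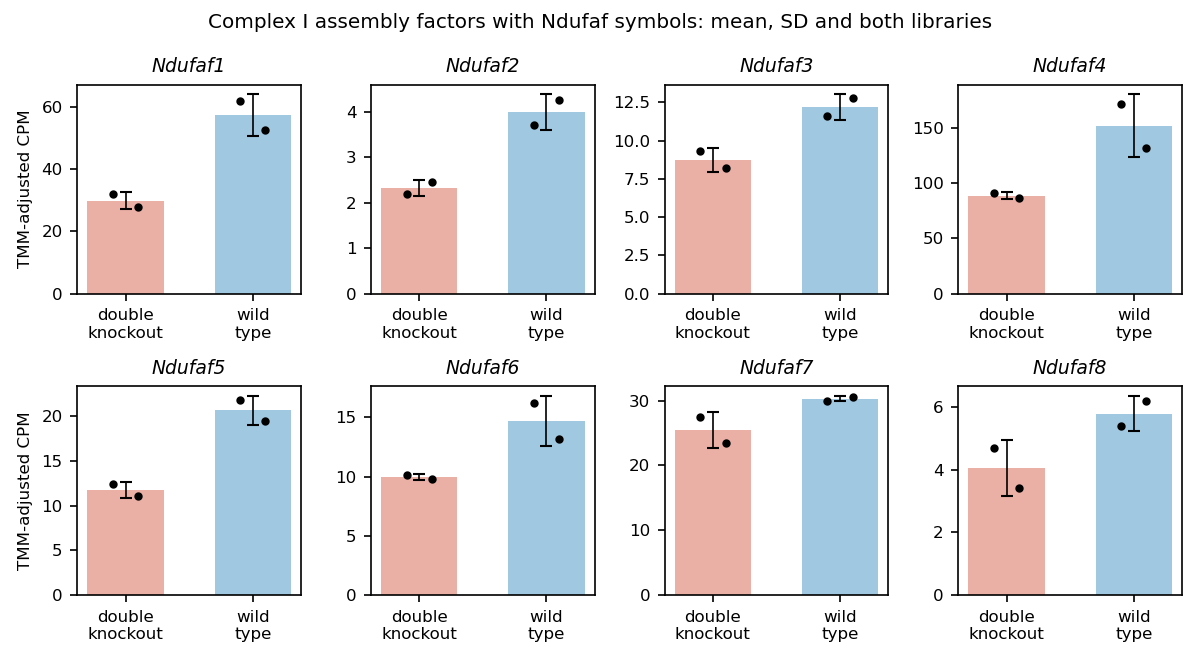
Each panel is an assembly factor, with TMM-adjusted CPM on a linear axis from 0. Bars are group means, error bars the SD (n = 2 per group) and points the libraries, with double knockout on the left. In all 8 panels both double knockout points lie below both wild type points, as for 25.2% of all genes tested.

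Upstream sequence was examined for letters of 3 factor motifs, on both strands of the 300 bases from 250 before to 50 after each RefSeq start (GRCm38.p6), where 40 of the 46 members matched by symbol. Among those not matched were Ndufa2, Ndufa4l2, Ndufaf6, Ndufb9 and Ndufs1. Nuclear respiratory factor 1 and the ETS factor GABP (nuclear respiratory factor 2) are known activators of respiratory chain genes, and the CArG box is the site that serum response factor binds. The NRF1 core, GCATGCG, occurred in 5 members (12.5%) and in 4.01% of all genes in the table. The ETS core, CCGGAAG, occurred in 6 members (15%) and in 9.93% of all genes. A CArG box occurred in 0 of 40 members and in 1.81% of all genes. No member held both the NRF1 and the ETS letters, so the motifs do not overlap each other.

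These upstream stretches are shown because they hold the NRF1 or ETS letters in genes named above, with those letters in capitals. Each is given 5′ to 3′ on the strand of the gene and leaves out bases annotated as exon. The upstream matches of Ndufa8, Ndufs3, Ndufb7 and Ndufaf8 lie wholly or partly in such bases and are not shown. Those of Ndufaf1 (minus strand, chr2:119662835-119663084) and Ndufaf4 (plus strand, chr4:24897833-24898082) belong to assembly factors. Those of Ndufa11 (plus strand, chr17:56717686-56717761), Ndufa6 (minus strand, chr15:82354323-82354541) and Ndufb6 (minus strand, chr4:40279422-40279671) belong to accessory subunits.
Ndufaf1: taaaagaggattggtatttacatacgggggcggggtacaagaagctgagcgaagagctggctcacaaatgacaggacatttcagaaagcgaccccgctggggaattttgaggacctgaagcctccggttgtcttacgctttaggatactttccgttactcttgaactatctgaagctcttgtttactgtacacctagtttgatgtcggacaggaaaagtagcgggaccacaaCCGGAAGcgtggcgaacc
Ndufaf4: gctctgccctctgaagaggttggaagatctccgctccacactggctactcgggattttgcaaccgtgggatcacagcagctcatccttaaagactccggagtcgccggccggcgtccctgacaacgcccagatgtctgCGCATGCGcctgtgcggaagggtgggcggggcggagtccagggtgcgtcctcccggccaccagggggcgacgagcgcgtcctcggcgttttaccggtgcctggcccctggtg
Ndufa11: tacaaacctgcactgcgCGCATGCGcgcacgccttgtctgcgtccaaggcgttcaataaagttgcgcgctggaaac
Ndufa6: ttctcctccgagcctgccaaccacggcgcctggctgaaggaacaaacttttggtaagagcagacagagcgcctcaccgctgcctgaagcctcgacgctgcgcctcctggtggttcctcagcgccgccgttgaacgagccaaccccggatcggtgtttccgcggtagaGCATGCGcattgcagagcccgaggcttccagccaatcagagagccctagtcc
Ndufb6: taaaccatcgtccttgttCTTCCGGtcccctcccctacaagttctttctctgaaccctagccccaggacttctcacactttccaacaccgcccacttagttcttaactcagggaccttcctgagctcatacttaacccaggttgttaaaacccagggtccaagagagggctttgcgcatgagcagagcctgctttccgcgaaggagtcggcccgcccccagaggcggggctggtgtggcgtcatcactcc

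The NRF1 letters lie in CGCATGCG in Ndufaf4 and Ndufa11, where they read the same on both strands, and singly in Ndufa6; a further match after the start of Ndufaf4 is not shown. The ETS letters stand 18 bases before the start in Ndufaf1 and on the opposite strand in Ndufb6. Ndufaf1 had the lowest ratio of the members, whereas Ndufb6, of the membrane arm, was at 13.8 and 13.4 CPM in double knockout and 19.3 and 18.04 CPM in wild type. A match is a description of these letters and shows no binding.

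Transcripts of the 8 assembly factors with an Ndufaf symbol were also scarcer relative to those of the subunits. Their sum was 189 and 173 CPM in double knockout and 323 and 271 CPM in wild type, a ratio of 0.609. The sum over the 36 core and accessory subunits was 3479 and 3633 CPM in double knockout and 4644 and 4401 CPM in wild type, a ratio of 0.786. Assembly factor CPM came to 5.43% and 4.77% of subunit CPM in double knockout, against 6.95% and 6.17% in wild type. The 4 values do not overlap between the groups. The gap between the groups, from 5.43% to 6.17%, was narrower than the gap between the 2 wild type libraries. No test was made of this share, because 2 against 2 libraries allow an exact permutation p no smaller than 0.333. Ndufaf4 was the largest term of the Ndufaf sum in every library. The 11 assembly factors without an Nduf symbol, listed below, did not share this. They summed to 439 and 417 CPM in double knockout and 551 and 522 CPM in wild type, a ratio of 0.798.

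The class medians of each double knockout library, set against the same wild type mean, are not independent of each other or of the fit. Relative to the wild type mean, double knockout library 1 had a median log2 difference of -0.38 for core subunits, -0.37 for accessory subunits and -0.63 for assembly factors. Double knockout library 2 had medians of -0.38, -0.44 and -0.71 for the same classes in the same order. The wild type libraries lay within 0.06 of 0 in each class. The median of all genes tested was 0.01 in double knockout library 1 and 0.00 in library 2.

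**Figure D3:**
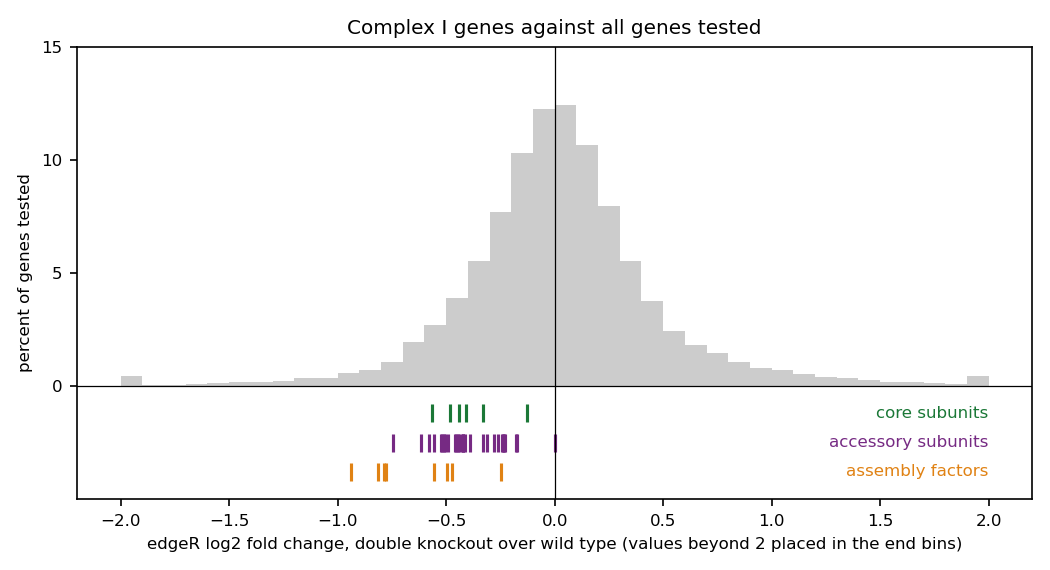
The histogram gives the percent of the 16009 genes tested in each bin of edgeR log2 fold change, double knockout over wild type, and the ticks below are the members of each class. The ticks of the 6 core subunits drawn run from -0.57 to -0.13 and those of the 8 assembly factors from -0.94 to -0.25.

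Levels per length, as CPM per kilobase of annotated exon, differed widely between subunits of the same enzyme. The length is that of all annotated exons of a gene merged, which can far exceed its longest coding transcript. It was 8086 against 2661 bases for Ndufs1 and 4522 against 623 bases for Ndufb7. The order of the genes and their spread therefore depend in part on the annotation. Core subunits had a median level of 81.3 (means of all 4 libraries), with Ndufs3 lowest at 24.6. Accessory subunits ran from 1.37 for Ndufb2 to 134 for Ndufb9, with a median of 28.8. Assembly factors ran from 1.06 for Ndufaf2 to 30.9 for Ndufaf4, with a median of 8.51. Ndufv2 stood at 119.6 ± 2.63 in double knockout and 159 ± 16.3 in wild type (CPM per kilobase, mean ± SD, n = 2 per group). Ndufb9, which was at 123 and 114 CPM in double knockout and 160.2 and 157 CPM in wild type, stood at 115 ± 6.29 in double knockout and 154 ± 2.15 in wild type per kilobase. It did not differ from Ndufv2 in either group beyond the spread.

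**Figure D4:**
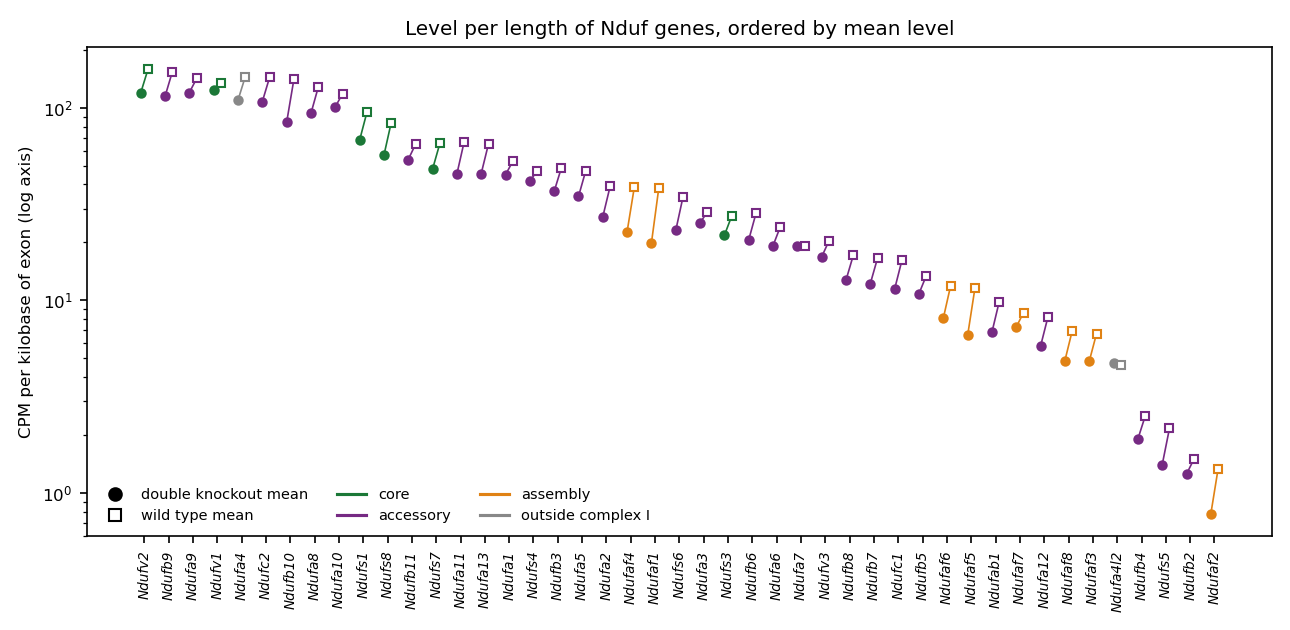
Genes are ordered by mean level, and the vertical log axis is CPM per kilobase of exon, with filled circles for double knockout means and open squares for wild type means. The circle is below the square for 43 of the 45 genes drawn and within the width of the marker for Ndufa7 and Ndufa4l2.

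Several of the lowest levels belonged to genes with near-identical copies. For 8 members the closest match of at least 50 bases at 95% identity or more was an annotated processed pseudogene. Of those copies, 7 had a row of counts, and only this closest copy was added to each gene. Ndufs5, a membrane arm subunit, held only 37 and 18 counts in double knockout and 60 and 40 counts in wild type, which is 1.31 and 1.101 CPM against 2.12 and 1.61 CPM. Its copy BC002163, 99.4% identical over 319 bases, was at 36.3 and 36.1 CPM in double knockout and 38.5 and 23.0 CPM in wild type. Summed with the copy, the groups overlapped for Ndufs5 (37.6 and 37.2 CPM in double knockout, 40.6 and 24.6 CPM in wild type). They also overlapped for Ndufa12 with Gm15920 (27.6 and 35.2 CPM in double knockout, 30.2 and 29.9 CPM in wild type), so the lower levels of these 2 genes are uncertain. For Ndufab1, Ndufb11, Ndufb4, Ndufs3 and Ndufs6 the sums still lay lower in both double knockout libraries. With the sums in place of the genes, 41 of 46 members lay below both wild type libraries, against 25.2% of all genes, taken without sums.

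Medians were close between members with much and with little shared or overlapping sequence. The 34 members with under 20% of bases shared with another transcript or overlapping another exon had a median log2 fold change of -0.43, with 31 below both wild type libraries. The other 12 had a median of -0.44, with 12 below. Of all genes tested, 25.2% lay below in this way. With a correction for a trend of each library on exon length, the medians were -0.40 for core subunits, -0.38 for accessory subunits and -0.65 for assembly factors.

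The Nduf symbols outside complex I are given singly, and the difference between them was not tested. Ndufa4 was at 145 and 158 CPM in double knockout and 196 and 205 CPM in wild type (-0.40, SE 0.11; edgeR adjusted p = 0.178). Ndufa4l2, a hypoxia-inducible paralog of Ndufa4, was at 5.04 and 5.26 CPM in double knockout and 4.02 and 6.11 CPM in wild type. Its groups overlapped, with a log2 fold change of 0.03 (SE 0.26).

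Complex I genes without an Nduf symbol form 2 lists. Mitochondrial DNA encodes 7 core subunits of the membrane arm, of which 5 were tested. mt-Nd1 was at 19280 and 20280 CPM in double knockout and 24900 and 25760 CPM in wild type (-0.36, SE 0.12; edgeR adjusted p = 0.235), and mt-Nd2 had a log2 fold change of -0.26 (SE 0.12). Of the 5, 3 lay below both wild type libraries, against 25.2% of all genes, while mt-Nd4 and mt-Nd6 overlapped. The median log2 fold change of mt-Nd subunits was -0.25. Leaving out wild type library 1 gave -0.36, and leaving out library 2 gave -0.12. mt-Nd3 and mt-Nd4l had between 0 and 6 counts in each library, too few to compare. Of 11 assembly factors without an Nduf symbol, 10 lay below both wild type libraries, against 25.2% of all genes. The other 1, Nubpl, a factor for iron-sulfur cluster insertion, lay above both, as did 25.8% of all genes. Nubpl was at 9.56 and 8.56 CPM in double knockout and 7.79 and 7.997 CPM in wild type. Timmdc1, of the same membrane arm assembly complex as Ndufaf1, was at 29.6 and 26.8 CPM in double knockout and 47.0 and 40.5 CPM in wild type (-0.63, SE 0.13; edgeR adjusted p = 0.1504), and Tmem70, which helps to build complex I and ATP synthase, at 56.4 and 54.9 CPM against 79.6 and 79.4 CPM (-0.51, SE 0.10; edgeR adjusted p = 0.141). Their list had a median log2 fold change of -0.28, against -0.42 for the 36 complex I subunits. It had 0 edgeR calls, against 0.0625% of all genes as lower. An unadjusted edgeR p under 0.05 with a lower level was reached by 6 of its members, against 8.63% of all genes. DESeq2 called 2 lower, against 1.54% of genes.

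The other complexes of oxidative phosphorylation differed among themselves in their medians, and none was tested against complex I. Of 41 nuclear genes of complexes II to V (Ndufa4 left out), 37 lay below both wild type libraries, against 25.2% of all genes. Their median log2 fold change was -0.37, against -0.42 for the 36 complex I subunits. The medians were -0.46 for 4 genes of complex II, -0.47 for 9 of complex III, -0.25 for 14 of complex IV with Ndufa4, and -0.33 for 15 of complex V. edgeR called 0 of the 41, against 0.0625% of all genes as lower. An unadjusted edgeR p under 0.05 with a lower level was reached by 24, against 8.63% of all genes. DESeq2 called 8 lower, against 1.54% of genes. The 2 genes with the smallest adjusted p were Sdha (log2 fold change -0.53, SE 0.11) and Sdhb (-0.57, SE 0.12) of complex II, and Cyc1 (-0.56, SE 0.11) and Uqcrfs1 (-0.58, SE 0.11) of complex III. They were Cox7c (-1.02, SE 0.17) and Cox7a1 (-0.84, SE 0.15) of complex IV, and Atp5d (-0.58, SE 0.10) and Atp5g1 (-0.64, SE 0.14) of complex V. Cox7c, at 11.8 and 9.42 CPM in double knockout and 21.6 and 21.8 CPM in wild type (edgeR adjusted p = 0.121), had a more negative log2 fold change than any Nduf gene.

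Of 11 regulators of mitochondrial genes, 4 (36.4%, against 25.2% of all genes) lay below both wild type libraries and 1 above. The median log2 fold change of regulators was -0.09, and it rests on 1 library: it was -0.34 without double knockout library 2, 0.004 without double knockout library 1, -0.02 when wild type library 1 was left out and -0.14 when library 2 was. Ppargc1b, a coactivator of mitochondrial gene transcription, was at 21.8 and 17.9 CPM in double knockout and 31.4 and 28.7 CPM in wild type (-0.59, SE 0.15; edgeR adjusted p = 0.168). Perm1, a muscle regulator induced by that family of coactivators, was at 113 and 72.2 CPM in double knockout and 156 and 147 CPM in wild type (-0.71, SE 0.22; edgeR adjusted p = 0.211). Ppargc1a, the better known family member, split the double knockout libraries, at 197 and 434 CPM, against 322 and 278 CPM in wild type. Nrf1, Gabpa and Gabpb1, the genes of NRF1 and GABP, had overlapping groups and log2 fold changes of -0.06, 0.09 and -0.09.

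**Figure D5:**
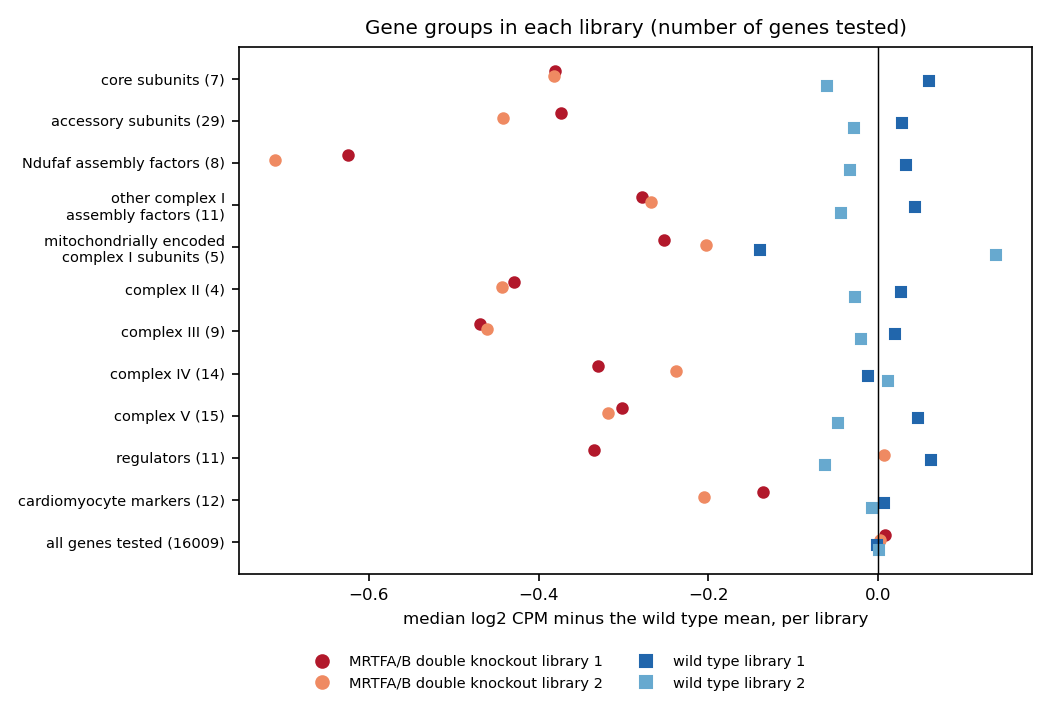
Each row is a gene group with its number of genes tested, and the horizontal axis is the group's median of log2 CPM minus the wild type mean in each library (circles double knockout, squares wild type). Assembly factors with an Ndufaf symbol have the lowest medians in both double knockout libraries (-0.63 and -0.71), and the medians of all genes tested lie at 0.01 and 0.00.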

How the data were processed

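RNA was purified from snap-frozen hearts and sequenced on an Illumina instrument, per the labels' protocols. Each deposited file holds raw, unnormalized read counts of 1 library. Per the submitters' processing notes, HTSeq, DESeq 1.10.1 and the build mm10 were used. The aligner, annotation release, strand setting and treatment of reads with several matches have no mention in the sources used here. Symbols, classes of transcript and positions came from GENCODE M21, which matched 42462 of 43346 identifiers, and promoters from RefSeq on GRCm38.p6.

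Libraries were grouped by the genotype in their labels. Counts were tested with the two-sided quasi-likelihood test of edgeR 4.0.16 (R 4.3.3, filterByExpr, TMM factors, robust estimation, no covariate), with Benjamini-Hochberg adjustment over the 16009 genes kept. CPM are counts scaled to the TMM-adjusted library total. DESeq2 1.42.0 and limma 3.58.1 (voom), other scalings and filters, a replicate block and leaving out each library were alternatives. Library totals set the precision: 3 counts correspond to 0.106 to 0.184 CPM. The scripts were tested on simulated data.

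The members and gene lists were chosen with earlier results of these data known. Named genes were all core subunits, per class those past the threshold, the 3 most negative and 3 most positive log2 fold changes and the highest and lowest level per length, Ndufa4, Ndufa4l2, Ndufa12 and Ndufaf2, and per other list the 2 smallest adjusted p-values. The replicate numbers were not taken to pair the libraries, because the labels do not say that they do. Across genes the wild type and double knockout differences between libraries 1 and 2 had r = -0.105. With 1 such difference per group, this cannot show whether libraries were paired. Of the Nduf symbols, 4 processed pseudogenes were left out. Values of 1 core subunit are not reported here singly or drawn, though it is counted in its class.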

Additional observations from a re-analysis of the deposited data

How the results depend on the processing

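The count of Nduf genes past the threshold, 0 with the settings reported, was 20 with no filter on low counts, 7 with DESeq2, 20 at an adjusted p under 0.20 (a threshold chosen after seeing the data, which 4.1% of all genes passed as lower) and 0 to 17 with 1 library left out. It was 0 with each of the other scalings, the stricter filter, limma-voom, no robust estimation and the length correction. The count of all genes past the threshold, 12, was 1514 with no filter, 513 with DESeq2, 1325 at an adjusted p under 0.20 and 2 to 2795 with 1 library left out. A lone library left in a group is assumed to vary like the other group. With the replicate number as a block, 0 Nduf genes and 2 genes in all passed. With the crossed pairing, added after seeing the data, 0 Nduf genes and 3 genes in all passed. The cause of these shifts was not tested.

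Without composition factors the median log2 fold change was -0.34 for core subunits, -0.35 for accessory subunits, -0.59 for assembly factors and -0.36 for all Nduf genes. With 1 library left out it ran from -0.52 to -0.33 for core subunits, from -0.46 to -0.35 for accessory subunits, from -0.73 to -0.59 for assembly factors and from -0.46 to -0.39 for all Nduf genes. The 43 genes with both double knockout libraries below both wild type libraries numbered 43 under each scaling tried. They numbered 41 with counts of the closest processed pseudogene added. With the settings reported, 25.2% of all genes lay below in this way. The Ndufa7 log2 fold change turned to -0.001 with RLE factors, -0.007 with upper-quartile factors, -0.015 with no filter, -0.002 with DESeq2 and -0.010 with limma-voom. With 1 library left out it ran from -0.084 (without double knockout library 2) to 0.081, and was -0.047 without wild type library 2. The Ndufb2 log2 fold change ran from -0.644 to 0.049 (without double knockout library 2). The Ndufa4l2 log2 fold change ran from -0.250 (without wild type library 1) to 0.343, and was -0.002 without double knockout library 2. The Ndufaf8 log2 fold change ran from -0.756 to -0.304, the Ndufs5 log2 fold change reached -0.410 without wild type library 1, the Ndufa12 log2 fold change -0.314 without double knockout library 1, and the Ndufaf7 log2 fold change -0.144 and the Ndufa3 log2 fold change -0.108 without double knockout library 2. Ndufs5 and Ndufaf2, with the fewest counts, are limited by depth.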
